A study of Mus musculus with 4 samples.

Results

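The dual-specificity phosphatases that switch off MAP kinases and the Sprouty proteins that restrain receptor signalling were examined in DC2.4 cells with and without ginsenoside Rb1. The genes were chosen by name, with earlier results of these data known. Of the 54532 genes of the deposited count table, 10 rows carried those names: Dusp1, Dusp2, Dusp4 and Dusp5, Dusp6 and Dusp7, Dusp10 and Dusp16, and Spry1 and Spry2. DC2.4 cells, an immortalised line of mouse dendritic cells, were grown in medium with serum, and ginsenoside Rb1 is a saponin from ginseng root. One group of cells had received vehicle for 24 h (2 libraries) and the other ginsenoside Rb1 at 10 uM for 24 h (2 libraries). The labels call the libraries biological replicates without saying what was kept apart, and p-values therefore speak only of the spread among these libraries. There was 1 cell line, 1 dose and 1 time.

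Mitogen-activated protein kinases (ERK, JNK and p38) are switched on by phosphorylation of a threonine and a tyrosine, and the MAP kinase phosphatases remove both phosphates. Many of these phosphatases, and the Sprouty proteins that act further up at the receptor and RAS, are themselves transcribed in response to the pathway, so that their mRNAs form negative feedback loops. In dendritic cells and macrophages DUSP1 is best known for limiting p38 and JNK activity, and with it cytokine production, after Toll-like receptor stimulation.

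Transcripts of Dusp1, Dusp5, Dusp6, Spry2 and Dusp4 fell with Rb1, by 11.1-fold, 6.95-fold, 3.36-fold, 2.05-fold and 1.41-fold. Dusp7 rose by 1.74-fold. Dusp16 was called higher by 1.18-fold, but it was lower, with a log2 fold change of -0.20, once the length trend described below was removed. Dusp2 and Dusp10 did not pass the test, and Spry1 had 1 count in all 4 libraries together. Calls differed within the usual classes: the nuclear inducible phosphatases held falls of 11.1-fold, 6.95-fold and 1.41-fold and an uncalled gene, and the cytoplasmic ERK phosphatases held a fall and a rise.

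Of the 9 genes with enough counts to be tested, 5 were lower, 2 higher and 2 not called at an adjusted p under 0.05 (edgeR's quasi-likelihood test, adjusted over all 13518 genes tested). Among all genes tested 36.3% were called lower and 35.7% higher, together 72%, so that a call as such sets no gene apart here. A called fall of at least 2-fold was seen in 4 of the 9 and in 16.2% of all genes tested. Spry2 passed that cut narrowly, at a log2 fold change of -1.04. It was at -0.79 with library totals and at -0.68 with the length trend removed. The groups did not overlap for 8 of the 9, and for 86.3% of all genes tested. The median log2 fold change was -0.49 over the 9 and -0.01 over all genes tested. Because the genes were chosen with earlier results of these data known, these contrasts with all genes are descriptive and not independent evidence. Dusp7 alone was called higher without vehicle replicate 1, without Rb1 replicate 1 and without Rb1 replicate 2, which left 1 gene higher in place of 2. Less RNA per cell and fewer cells carrying a transcript cannot be told apart in these bulk libraries.

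The libraries held between 17829784 and 18641021 counts. Levels were scaled by TMM, which corrects for composition under the assumption that most genes do not change. Of all genes tested 72% were called, so that assumption was not shown to hold here. With library totals instead, the median log2 fold change over all genes tested was 0.23 rather than -0.01, and 62.6% rather than 49.6% of calls were higher, so each direction given here is on the TMM scale. Gene models over 5 kb took 27.9% and 30.4% of all counts in the vehicle libraries but 40.5% and 40.1% in the Rb1 libraries, so values with this length trend removed are given beside the fold changes of the phosphatase and Sprouty genes and of some list genes. Of 11 dendritic and haematopoietic markers 8 reached 1 CPM (counts scaled by library size) in all libraries, among them Ptprc, Itgam, Irf8, Spi1 and Cd74, but Flt3 had 0 to 2 counts, Batf3 1 to 5 and H2-Ab1 4 to 15. The 11 markers summed to 1680 and 1670 CPM with vehicle and to 1030 and 1010 CPM with Rb1, and they moved in both directions. Ptprc, which encodes CD45, stood at 107 and 113 CPM with vehicle and at 237 and 241 CPM with Rb1, and Zbtb46 at 2.21 and 1.84 CPM against 6.35 and 5.62 CPM. Itgax, which encodes CD11c, stood at 27.6 and 30.3 CPM with vehicle and at 3.55 and 3.1 CPM with Rb1. The macrophage markers Adgre1, Csf1r and Cd68 were high in every library, with the 5 markers of that list summing to 1560 and 1600 CPM with vehicle and to 981 and 979 CPM with Rb1. None of 3 T cell, 3 B cell, 4 fibroblast and 3 epithelial markers reached 1 CPM in all libraries; the fibroblast list, mostly Dcn, summed to 6.94 and 7.2 CPM with vehicle and to 0.7 and 0.258 CPM with Rb1. Mrc1, another macrophage marker, went from 133 and 104 counts to 0 in both Rb1 libraries. The part of these shifts in the results below was not tested.

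RefSeq start-site windows (build GRCm38.p6, 250 bases before to 50 after the start) were matched for 9 of the 10 genes, all but Dusp4. They are shown for the 3 genes that fell most and for the gene that rose most, because many of these genes are transcribed in response to the pathway. Whether the transcription of these genes or the decay of their mRNA changed was not tested. The windows lie at chr17:26508423-26508722 (minus strand, Dusp1), chr19:53528895-53529194 (plus strand, Dusp5), chr10:99262981-99263280 (plus strand, Dusp6) and chr9:106368382-106368681 (plus strand, Dusp7). Each is written 5′ to 3′ in the direction of the gene, with capitals for matches to the motifs named after the sequences.
Dusp1: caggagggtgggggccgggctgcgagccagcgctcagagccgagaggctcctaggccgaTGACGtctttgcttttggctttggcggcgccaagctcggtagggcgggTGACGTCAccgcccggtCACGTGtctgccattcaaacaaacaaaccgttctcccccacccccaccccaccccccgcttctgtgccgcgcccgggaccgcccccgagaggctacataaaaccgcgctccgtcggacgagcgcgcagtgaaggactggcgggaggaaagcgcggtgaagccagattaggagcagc
Dusp5: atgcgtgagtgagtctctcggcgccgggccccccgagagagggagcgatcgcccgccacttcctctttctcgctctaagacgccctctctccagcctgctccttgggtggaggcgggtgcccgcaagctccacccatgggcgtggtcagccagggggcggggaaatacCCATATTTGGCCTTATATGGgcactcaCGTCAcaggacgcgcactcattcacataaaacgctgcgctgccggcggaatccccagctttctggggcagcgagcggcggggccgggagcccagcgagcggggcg
Dusp6: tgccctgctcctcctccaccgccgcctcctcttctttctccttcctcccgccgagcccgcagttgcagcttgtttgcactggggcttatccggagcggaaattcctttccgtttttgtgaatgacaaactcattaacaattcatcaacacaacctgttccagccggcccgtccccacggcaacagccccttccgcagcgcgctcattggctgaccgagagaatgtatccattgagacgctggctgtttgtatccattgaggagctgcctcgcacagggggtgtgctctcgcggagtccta
Dusp7: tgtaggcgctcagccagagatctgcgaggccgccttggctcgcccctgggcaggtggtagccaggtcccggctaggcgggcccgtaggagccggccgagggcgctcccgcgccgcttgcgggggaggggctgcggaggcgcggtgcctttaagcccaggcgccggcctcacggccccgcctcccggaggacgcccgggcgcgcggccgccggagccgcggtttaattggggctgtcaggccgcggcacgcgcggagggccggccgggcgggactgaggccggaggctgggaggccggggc

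The motifs searched on both strands were the cAMP response element TGACGTCA and its core TGACG (which lies within it), the AP-1 site TGACTCA, the ETS site CCGGAAGT, TATAAA, the E-box CACGTG, and the CArG box and NF-kB site by their usual consensus. With positions counted from 0 at the start site, the Dusp1 window held a full cAMP response element from -143 to -136, a further core from -191 to -187 and an E-box from -126 to -121. It was the only one of the 9 windows with the full element, which 1.79% of the 32851 windows in the table held. The Dusp5 window held adjoining CArG boxes, the binding sequence of serum response factor, from -82 to -73 and from -72 to -63, and a cAMP response element core from -55 to -51. It was the only one of the 9 with a CArG box, which 1.63% of all windows held. The core TGACG alone was in 4 of the 9 (Dusp1, Dusp2, Dusp5 and Dusp16) and in 20.8% of all windows. The E-box was in 2 of the 9 (Dusp1 and Dusp2) and in 7.15% of all windows. The windows of Dusp6, Dusp7, Dusp10, Spry1 and Spry2 held none of the motifs, and no AP-1, ETS, TATAAA or NF-kB match was found in any of the 9. Of all windows 5.2% held the AP-1 site, 3.89% the ETS site, 13.6% TATAAA and 8.46% the NF-kB site. A match is a description of these letters and does not show that a factor binds there.

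Among the nuclear inducible phosphatases, Dusp1 (ENSMUSG00000024190, chromosome 17, 26505590 to 26508519, minus strand, GRCm38) fell most. It encodes MKP-1, which acts on p38, JNK and ERK, and its window holds the full cAMP response element printed above. Vehicle replicates 1 and 2 held 3595 and 3284 of its counts and Rb1 replicates 1 and 2 held 359 and 372, or 215 and 195 CPM against 17.9 and 19.2 CPM. Both Rb1 libraries were far below both vehicle libraries, and the replicates of a group lay close together. The group means were 205 ± 14 CPM and 18.6 ± 0.886 CPM (SD, n = 2 each). The log2 fold change was -3.47 (SE 0.09, adjusted p = 9.2e-11), and 2.91% of all genes tested had a lower one. It was -3.58 within replicate 1 and -3.35 within replicate 2, and -3.26 with the length trend removed.

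Dusp5 (ENSMUSG00000034765, chromosome 19, 53529109 to 53542431, plus strand), a nuclear phosphatase selective for ERK, had 59.9 and 56.9 CPM with vehicle and 8.94 and 7.84 CPM with Rb1. The counts behind these were 1001 and 957 against 179 and 152. The groups were widely separated, with a log2 fold change of -2.80 (SE 0.11, adjusted p = 1.9e-09), -2.74 and -2.86 within replicates 1 and 2, and -2.55 with the length trend removed. An antisense gene of GENCODE M21 shares 547 exonic bases with Dusp5, or 22.1% of its exons. The sources used here do not say whether counting used strand, so reads of the pair cannot be told apart.

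Dusp4 (ENSMUSG00000031530, chromosome 8, 34807297 to 34819894, plus strand), encoding the nuclear phosphatase MKP-2, fell much less. It stood at 262 and 257 CPM with vehicle and at 190.1 and 178.5 CPM with Rb1, and the groups did not overlap. The log2 fold change was -0.49 (SE 0.07, adjusted p = 6.4e-05), -0.29 with the length trend removed and -0.25 with library totals, and it was called in each. Dusp2 (ENSMUSG00000027368, chromosome 2, 127336159 to 127338376, plus strand), encoding PAC-1, which is known as an inducible phosphatase of activated immune cells, had 16.9 and 13.2 CPM with vehicle and 15.1 and 17.2 CPM with Rb1. These overlapped, with a log2 fold change of 0.10 (SE 0.14, adjusted p = 0.554), -0.17 within replicate 1 and 0.38 within replicate 2. Dusp2 was called higher with library totals (0.35) and with the length trend removed (0.47), and it was at -0.070 without vehicle replicate 2, so no direction can be given for it.

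**Figure D1:**
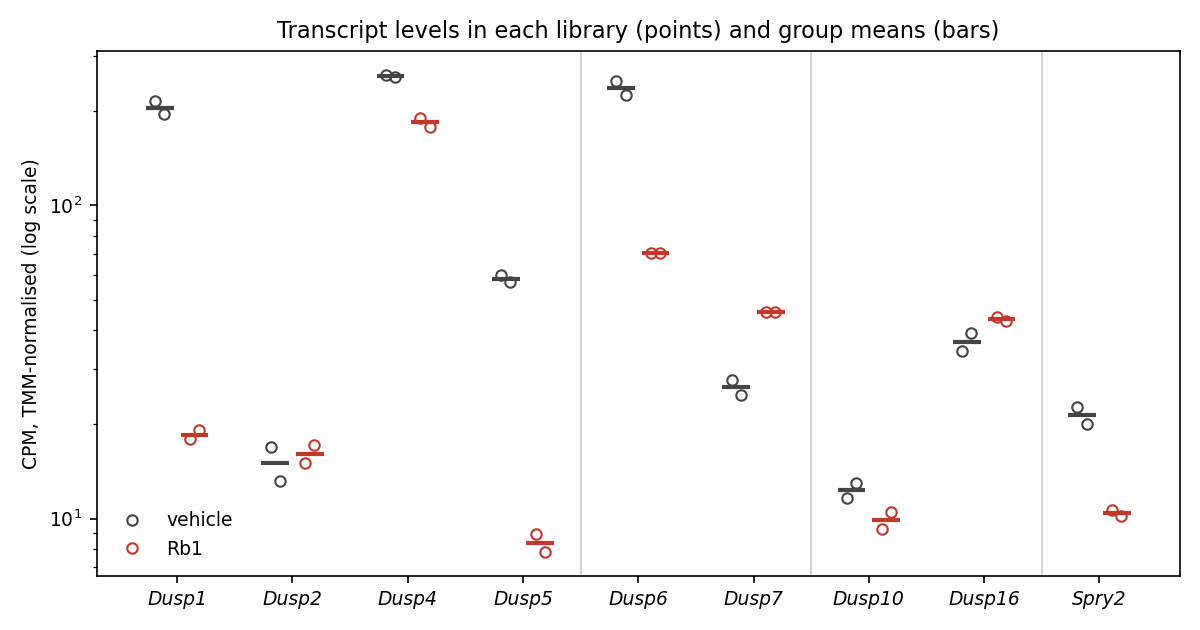
Levels of the 9 tested genes in CPM (TMM-normalised, log axis) in each of the 4 libraries, with open circles for libraries, bars for group means, and lines separating the nuclear, cytoplasmic, stress-kinase and Sprouty classes. Dusp1, Dusp5, Dusp6, Dusp4 and Spry2 sit lower in both Rb1 libraries than in both vehicle libraries, Dusp7 sits higher, and the groups of Dusp2 overlap.

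The cytoplasmic ERK phosphatases went in opposite directions. Dusp6 (ENSMUSG00000019960, chromosome 10, 99263231 to 99267489, plus strand) encodes MKP-3, an ERK-specific phosphatase whose mRNA is widely used as a readout of ERK signalling. It had 249 and 225 CPM with vehicle and 70.7 and 70.5 CPM with Rb1, from 4162 and 3781 counts against 1415 and 1367. The groups were far apart, with a log2 fold change of -1.75 (SE 0.08, adjusted p = 5.0e-09), -1.82 and -1.67 within replicates 1 and 2, and -1.61 with the length trend removed.

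Dusp7 (ENSMUSG00000053716, chromosome 9, 106368632 to 106375724, plus strand) encodes MKP-X, the close relative of MKP-3. It had 27.8 and 24.7 CPM with vehicle and 45.8 and 45.6 CPM with Rb1, so both Rb1 libraries were above both vehicle libraries. The log2 fold change was 0.80 (SE 0.09, adjusted p = 1.2e-05), 0.72 and 0.88 within replicates 1 and 2, and 0.91 with the length trend removed. The deposited FPKM are counts over the length of the gene model and over a constant of each library. Within a library the FPKM of Dusp6 was 9.61 and 9.74 times that of Dusp7 with vehicle and 1.65 and 1.66 times with Rb1. This ratio of levels does not depend on how libraries were scaled to each other.

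Dusp10 and Dusp16, grouped here as phosphatases with a preference for the stress kinases JNK and p38, had log2 fold changes of 0.24 (Dusp16) and -0.32 (Dusp10); the product of Dusp1, in the nuclear class, acts on these kinases too. Dusp16 (ENSMUSG00000030203, chromosome 6, 134715468 to 134792625, minus strand), encoding the JNK phosphatase MKP-7, had 34.2 and 39.2 CPM with vehicle and 43.9 and 42.9 CPM with Rb1. The groups did not overlap, but the vehicle libraries lay further apart than vehicle replicate 2 and Rb1 replicate 2, and the log2 fold change was 0.24 (SE 0.09, adjusted p = 0.036). Dusp16 has the longest gene model of the 10, at 7798 bases, and removing the length trend turned its log2 fold change to -0.20 (adjusted p = 0.0379), a call that was lost with the replicate block added (adjusted p = 0.0538). The call as higher was lost by leaving out vehicle replicate 1 (adjusted p = 0.155), Rb1 replicate 1 (0.185) or Rb1 replicate 2 (0.121), with a range over all alternatives of 2.4e-04 to 0.185. Dusp10 (ENSMUSG00000039384, chromosome 1, 184013302 to 184075636, plus strand), encoding MKP-5, a phosphatase of p38 and JNK, had 11.7 and 13 CPM with vehicle and 9.24 and 10.5 CPM with Rb1. It did not pass, with a log2 fold change of -0.32 (SE 0.14, adjusted p = 0.062), which was -0.17 with the length trend removed and -0.07 with library totals. It was called lower without vehicle replicate 1 (adjusted p = 0.0152, over all alternatives 0.0152 to 0.674).

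Of the Sprouty genes, Spry2 (ENSMUSG00000022114, chromosome 14, 105891947 to 105896819, minus strand) was expressed at a low level and fell. The vehicle libraries held 379 and 338 of its counts and the Rb1 libraries 213 and 198, or 22.7 and 20.1 CPM against 10.6 and 10.2 CPM. The groups did not overlap, and the log2 fold change was -1.04 (SE 0.12, adjusted p = 1.4e-05), -1.09 and -0.98 within replicates 1 and 2, and -0.68 with the length trend removed. Spry1 (ENSMUSG00000037211, chromosome 3, 37639947 to 37644598, plus strand) had 0 counts in both vehicle libraries and in Rb1 replicate 1, and 1 count in Rb1 replicate 2. A count of 0 allows up to 3 counts, or 0.18 and 0.178 CPM in the vehicle libraries and 0.15 CPM in Rb1 replicate 1, so Spry1 was at the detection limit in both groups and no fold is given.

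**Figure D2:**
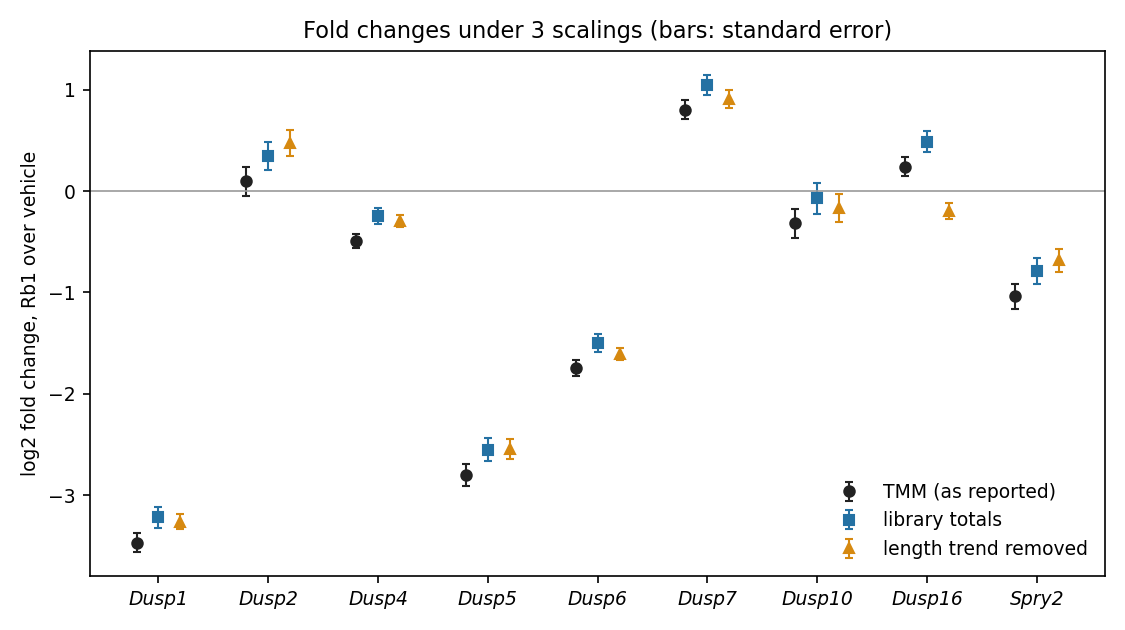
Log2 fold change of each tested gene, Rb1 over vehicle, with its standard error, on the TMM scale (circles), with library totals (squares) and with the length trend of each library removed (triangles). Dusp1, Dusp5, Dusp6, Spry2 and Dusp4 are below 0 and Dusp7 above 0 in all 3, while Dusp16 changes sign, from 0.24 to -0.20.

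Per unit of gene length the order of the genes changed between the groups. With vehicle the highest FPKM was that of Dusp4 (93.8 ± 0.687), followed by Dusp1 (75.4 ± 4.72) and Dusp6 (75 ± 4.99), whose libraries overlapped. Dusp5 (23.4), Spry2 (10.2), Dusp7 (7.75), Dusp2 (7.46), Dusp16 (4.67) and Dusp10 (4.01) came next by mean FPKM, and in this stretch the libraries of Dusp7 and Dusp2 overlapped. With Rb1, Dusp4 was still highest (67.2 ± 3.05 FPKM), followed by Dusp6 (22.5), Dusp7 (13.6), Dusp2 (8.05) and Dusp1 (6.88). Dusp1 thus went from the second to the fifth place, and Dusp5 to the eighth, at 3.39 FPKM, where its libraries overlapped those of Dusp10. These places rest on the deposited gene lengths, which for Dusp1 was 2697 bases against 3311 exonic bases in GENCODE M21.

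The summed FPKM of the 10 genes was 311 and 292 (vehicle) and 137 and 134 (Rb1), so both Rb1 libraries had the lower total. These totals rest on library constants close to the TMM factors. Dusp4 made up 30.3% and 31.9% of that sum with vehicle and 50.6% and 48.6% with Rb1. Dusp1 made up 25.3% and 24.6% with vehicle and 4.85% and 5.31% with Rb1. By class, the nuclear phosphatases held 66% and 66.6% of the sum with vehicle and 63.6% and 62.7% with Rb1, and the cytoplasmic ERK phosphatases 27.9% and 26.9% against 26.4% and 27%. On the FPKM scale the shares of these classes therefore moved by a few percentage points only. Summed as CPM, without division by gene length, the nuclear class went from 61.6% and 61.9% to 56.3% and 55.3%. The cytoplasmic class went from 30.8% and 29.6% to 28.3% and 28.9% of the CPM sum. Dusp4 led the nuclear class and Dusp6 the cytoplasmic class in both groups, while the shares of Dusp1 and Dusp6 were smaller and those of Dusp4 and Dusp7 larger with Rb1. The stress-kinase phosphatases, which changed little themselves, went from 2.61% and 3.16% of the FPKM sum to 6.32% and 6.69%. In CPM they went from 5.11% and 6.18% to 12.9% and 13.3%. Shares within a library do not depend on library scaling, but they were not corrected for the length trend. Dusp16, in the stress-kinase class, went from a log2 fold change of 0.24 to -0.20 with that trend removed. No test was made of the shares.

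**Figure D3:**
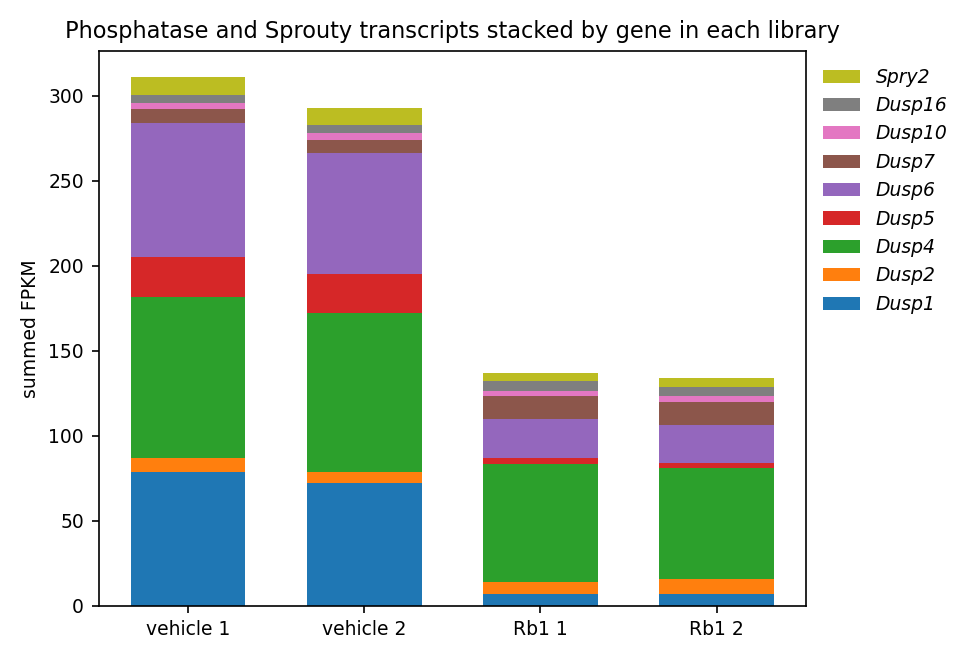
Summed FPKM of the phosphatase and Sprouty genes in each library, stacked by gene (linear axis from 0, Spry1 not drawn). The stack is 311 and 292 FPKM high with vehicle and 137 and 134 with Rb1, with Dusp1 (blue) and Dusp6 (purple) shrinking and Dusp4 (green) taking the largest share with Rb1.

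The genes whose centred log2 CPM over the 4 libraries lay closest to those of Dusp1, the gene that fell most, were Emp2, Bcar1 and Mx1, at Euclidean distances of 0.0857, 0.0906 and 0.118 among 11030 genes compared. Closest to Dusp7, which rose most, were Idh2, Slc35e2 and Nudcd3, at 0.0211, 0.0253 and 0.0272. With 4 libraries in 2 groups this measures mainly a like fold change.

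The other genes of the pathway were read from 8 lists with 161 genes, of which 147 were tested, 62 called higher, 54 lower and 31 not called. With library totals 82 were higher and 36 lower, and with the length trend removed 50 and 61. The lists are described by their counts and medians, beside a median of -0.01 over all genes tested, and no test was made of a list as such.

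Among 18 other tested dual-specificity phosphatases 6 were lower, 5 higher and 7 not called, with a median log2 fold change of -0.14 (0.11 with library totals, where 8 were higher and 6 lower). The JNK-pathway phosphatase gene Dusp19 fell from 18.9 ± 0.337 to 12 ± 0.917 CPM. Dusp9, which encodes MKP-4, an ERK phosphatase related to MKP-3 and MKP-X, fell from 23.6 ± 1.29 to 15.1 ± 1.24 CPM. Dusp11, whose product acts on RNA rather than on a MAP kinase, rose from 75.5 ± 0.968 to 166 ± 0.437 CPM, a log2 fold change of 1.13, or 0.63 with the length trend removed. Ssh2, encoding a slingshot phosphatase that acts on cofilin, rose from 25.6 ± 4.99 to 64 ± 4.77 CPM, a log2 fold change of 1.32, or 0.36 with the length trend removed. Dusp15 counts were 16 and 12 in the vehicle libraries and 1 and 0 in the Rb1 libraries, a ratio of 32.9 with an exact (Clopper-Pearson) 95% interval of 5.44 to 1350 that covers counting error only. Dusp8, the remaining MAP kinase phosphatase of the JNK and p38 class, was low, at 2.45 and 1.67 CPM with vehicle and 1.3 and 1.55 CPM with Rb1, and did not pass (adjusted p = 0.167).

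Of the other Sprouty and SPRED genes 2 were called higher and 0 lower among 4 tested. Spred1, which encodes an inhibitor of RAS activation that works with neurofibromin, rose from 117 ± 4.5 to 199 ± 0.61 CPM, a log2 fold change of 0.77 (SE 0.07, adjusted p = 1.5e-06), or 0.41 with the length trend removed, opposite to Spry2. Nf1, which encodes neurofibromin and stood in the list of other brakes, rose from 17.6 ± 0.386 to 59.5 ± 1.77 CPM, with a log2 fold change of 1.76, or 0.89 with the length trend removed. Spry4 counts were 9 and 3 in the vehicle libraries and 26 and 25 in the Rb1 libraries (adjusted p = 0.00662), and its call was lost without vehicle replicate 2, which left 1 gene of the list higher. Spred2 stood at 40.8 and 40.9 CPM with vehicle and 41.6 and 43.8 CPM with Rb1 (adjusted p = 0.521). With library totals all 4 genes were called higher, and with the length trend removed Spred3 was called lower.

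In the list of other brakes on receptor and RAS signalling 11 of 21 were higher and 5 lower. With library totals 14 were higher and 2 lower, with the length trend removed 10 and 8, and with the replicate block 11 and 3. Cbl, a ubiquitin ligase of activated receptors, rose from 33.8 ± 1.58 to 89.6 ± 3.75 CPM (log2 fold change 1.41, or 0.69 with the length trend removed), and Errfi1, a feedback inhibitor of the EGF receptor, fell from 54.3 ± 0.199 to 22.1 ± 0.57 CPM. Leaving out Rb1 replicate 1 or Rb1 replicate 2 left 3 of these genes lower.

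Of the receptor adaptors, RAS and RAF genes 8 of 18 were higher and 6 lower (5 and 7 with the length trend removed, 12 and 4 with library totals), and the count of higher genes was 5 without Rb1 replicate 1 or without Rb1 replicate 2. Braf, encoding a RAF kinase, rose from 24.3 ± 0.0187 to 57.4 ± 0.685 CPM, a log2 fold change of 1.24, or 0.45 with the length trend removed. Hras fell from 45.4 ± 3.53 to 30.5 ± 2.66 CPM.

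In the layer of MAP kinase kinases and their activators 17 of 31 were higher and 9 lower (13 and 12 with the length trend removed, 21 and 5 with library totals), and 5 were lower without Rb1 replicate 2. Map3k8, encoding the kinase TPL2, which activates the ERK kinases in myeloid cells, fell from 44.1 and 52.3 CPM to 15 and 13.1 CPM, a log2 fold change of -1.78 (SE 0.12, adjusted p = 1.1e-07). Map2k1, encoding the ERK kinase MEK1, fell from 463 ± 19.9 to 188 ± 3.29 CPM, and Map2k6, encoding the p38 kinase MKK6, from 38.3 ± 2.83 to 7.95 ± 0.287 CPM. Map3k5, encoding the stress-activated kinase ASK1, rose from 8.83 ± 1.73 to 28.1 ± 3.39 CPM. Map4k1 rose from 56.4 ± 1.77 to 108 ± 2.76 CPM, and Map3k3 from 34 ± 3.27 to 69.3 ± 1.13 CPM.

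Of the MAP kinase genes themselves 11 were tested, and 5 were higher, 2 lower and 4 not called. With library totals 8 were higher and 1 lower, and with the length trend removed 5 and 4. Mapk3, encoding ERK1, was called lower at a log2 fold change of -0.25 (adjusted p = 0.00898), a call lost with library totals and without either Rb1 replicate, and it stood at 0.05 with the length trend removed. Mapk13, encoding the delta isoform of p38, fell from 6.74 ± 0.789 to 2.72 ± 0.528 CPM. Without Rb1 replicate 2 the list had 3 genes higher and 1 lower, and without Rb1 replicate 1 it had 1 lower.

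Downstream of the MAP kinases 9 of 14 genes were higher and 4 lower (9 and 2 with library totals, 6 and 4 with the length trend removed). Zfp36 encodes tristetraprolin, an mRNA-destabilising protein that p38 signalling holds inactive and that DUSP1 is known to favour. Its transcript rose from 61.1 and 61.6 CPM to 113 and 114 CPM, a log2 fold change of 0.89 (SE 0.08, adjusted p = 8.8e-07). Rps6ka5, encoding the kinase MSK1, rose from 6.24 ± 0.154 to 22.1 ± 1.48 CPM (log2 fold change 1.82, or 1.13 with the length trend removed), while Rps6ka4, encoding MSK2, fell from 87.3 ± 0.64 to 53.2 ± 0.846 CPM.

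Of 30 tested transcripts known to be induced by ERK signalling or serum 22 were lower, 5 higher and 3 not called, with a median log2 fold change of -0.84. With library totals 16 were lower and 6 higher (median -0.60) and with the length trend removed 18 and 5 (median -0.61). Beside Ier3 and the AP-1 gene Jun, the cytokine gene Lif was among the falls with the smallest p, from 46.6 ± 2.45 to 2.85 ± 0.351 CPM. Not every transcript of the list went that way: Epha2 rose from 34.1 ± 1.03 to 72.4 ± 2.89 CPM, the cyclin gene Ccnd1 from 74.3 ± 2.62 to 126 ± 1.65 CPM and the ETS factor gene Etv5 from 16.3 ± 2.88 to 36.5 ± 0.033 CPM. The count of higher genes was 3 without vehicle replicate 1, without Rb1 replicate 1 and without Rb1 replicate 2. Ier3 and Jun were already among falls known from these libraries when the list was written, so the list's direction is not independent evidence.

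**Figure D4:**
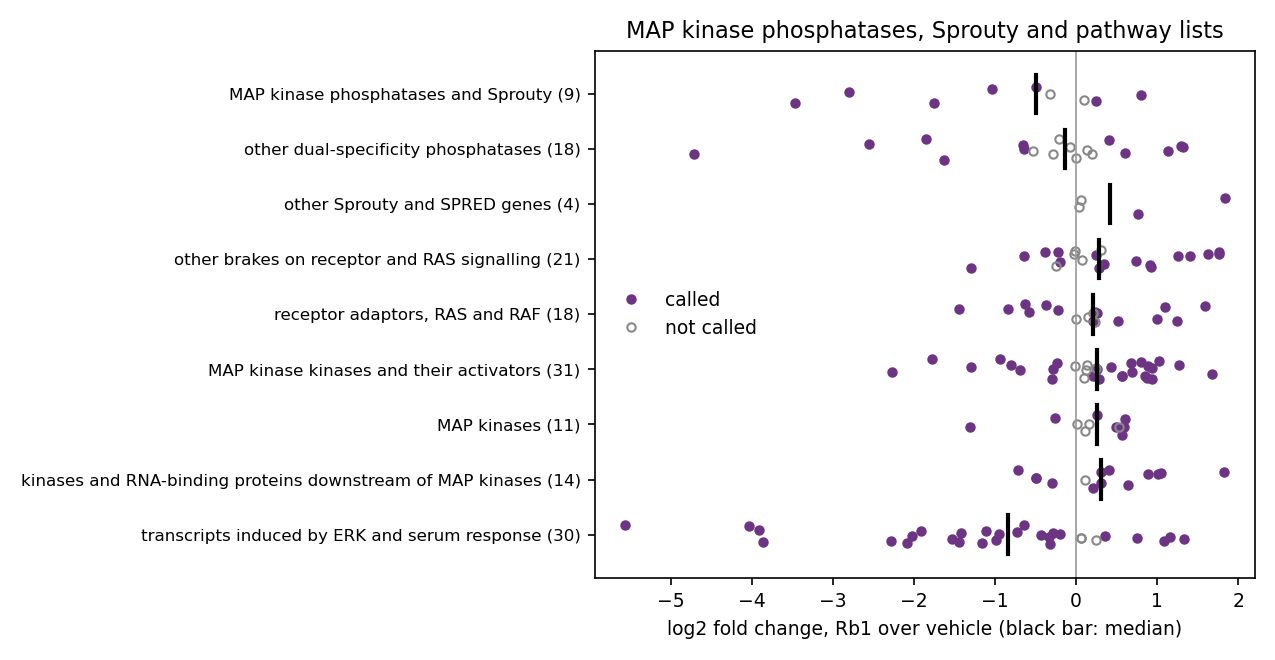
Log2 fold change, Rb1 over vehicle, of the 9 tested phosphatase and Sprouty genes and of the tested genes of 8 pathway lists (number tested in brackets), each point a gene, filled where called, with a black bar at the median. The phosphatase and Sprouty genes (median -0.49) and the ERK-induced transcripts (median -0.84) lie mostly left of 0, and the kinase lists lie on both sides of it.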

How the data were processed

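RNA of DC2.4 cells (vehicle, 2 libraries; Rb1, 2 libraries) was sequenced as paired-end reads on an Illumina instrument, from total RNA, per the labels' protocols. The sources used here do not name the kit, read length, strand use, aligner, counter or annotation. The authors deposited raw counts per gene, unpooled, and FPKM per gene. Each deposited FPKM is the count over gene length and over a library constant. For vehicle replicates 1 and 2 and Rb1 replicates 1 and 2 that constant was 0.908, 0.943, 1.09 and 1.09 times the count total. The TMM factors were close to these, at 0.897, 0.94, 1.09 and 1.09, so the FPKM settings are not a scaling independent of TMM. The submitters' processing notes name GRCm39 and mm39, but 98.3% of the table's gene IDs found in GENCODE M21 have its GRCm38 coordinates, so coordinates are named GRCm38.

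The main test was edgeR's two-sided quasi-likelihood test (version 4.0.16, with TMM, filterByExpr and robust fitting) of a model with group alone. It left 2 residual degrees of freedom, and p-values were adjusted by Benjamini-Hochberg over 13518 genes at 0.05. The test pools information on variance over all genes. A very small p-value therefore does not rest on the replicate spread of its own gene alone. The procedure was also run on simulated data in which few genes changed and no length trend was present. Of all genes tested here 72% were called, so that run does not show how calls behave in data like these. The standard error is the log2 fold change over the square root of F. CPM are TMM-normalised, and ± is the SD of 2 libraries. The length trend was removed by a lowess offset (span 0.3) per library. Alternatives also used limma 3.58.1 and DESeq2 1.42.0 on the counts and log2(FPKM + 1) or log2(FPKM + 0.1).

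Replicates differed by more than sampling noise (chi-square per degree of freedom 11.8 with vehicle and 2.87 with Rb1). In the labels the batch field gives the replicate number, which was taken to pair the libraries; across genes, deviations from the group means of libraries with the same number had a correlation of -0.052. The 10 genes and the lists were chosen with earlier results of these data known. All 10 genes are described; of each list, genes were drawn from the 3 called with the smallest p in each direction, and some of these are not reported here. Dusp8, Spred2 and Spred3 fall outside that rule and were named after their values were seen. Intervals and limits at 0 counts leave out all but counting error, and without molecular identifiers reads need not be independent molecules.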

Additional observations from a re-analysis of the deposited data

How the results depend on the processing

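Dusp1, Dusp4, Dusp5, Dusp6, Dusp7 and Spry2 kept their direction and their call in all 16 alternatives: other scalings, filters and tests, the FPKM scale, the replicate block, the length trend removed, and each library left out. Their log2 fold changes ranged from -3.53 to -3.22, -0.53 to -0.25, -2.89 to -2.48, -1.82 to -1.50, 0.72 to 1.05 and -1.12 to -0.68. Dusp2 became called higher with library totals (0.35), with the length trend removed (0.47) and with that and the replicate block (0.47), and ranged from -0.070 (without vehicle replicate 2) to 0.28 with a library left out. Dusp10 ranged from -0.41 to -0.22 with a library left out, and was called lower without vehicle replicate 1. Dusp16 lost its call with DESeq2 (0.24), log2(FPKM + 1) (0.21), log2(FPKM + 0.1) (0.25) and log2(FPKM + 1) without a filter (0.21), turned to -0.20 with the length trend removed (called lower) and to -0.20 with that and the replicate block (not called, adjusted p = 0.0538), and ranged from 0.14 to 0.34 with a library left out. The genes called higher therefore numbered 1 in place of 2 with DESeq2 and with each of the 3 FPKM settings. In these settings only Dusp16 lost its call, for a reason that was not tested. With library totals 3 of the genes were higher, and with the length trend removed 6 were lower. With the replicate block 4799 genes in all were higher and 4854 lower, the phosphatase and Sprouty genes stayed at 2 higher and 5 lower, and the block alone changed no other call among them. Leaving out a library leaves 1 lone sample in a group, which is assumed to vary like the other group. A call kept there adds little. The replicate block takes up residual degrees of freedom, yet edgeR's adjusted p of Dusp6 was 5.0e-09 in the main fit and 1.8e-69 with the block. A call kept with the block therefore adds little as well. Low counts limit Spry1, Spry4 and Dusp15.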
